A study of Mus musculus with 4 samples.

Results

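The 9 genes described here belong to the Nodal pathway: the ligands Nodal and Gdf3, the co-receptor Tdgf1, the receptor Acvr2b, the transcription factor Foxh1, the co-repressor Skil and the inhibitors Lefty1, Lefty2 and Cer1. They were taken by symbol, and each had 1 row among the 21690 features of every deposited table. The RNA came from A2lox mouse embryonic stem cells with an inducible Geminin knockdown, cultured for 5 days in N2B27, a serum-free medium in which stem cells turn into neural precursors. The 3 knockdown libraries, each from an independent experiment per the labels, had 500 ng doxycycline from day 3 (the volume is not in the labels). The control is 1 library of the same knockdown-capable cells grown without doxycycline, so the drug and the loss of Geminin cannot be told apart, and the spread between control cultures is unknown. The design text speaks of pairs of samples with and without the drug, but all 3 deposited tables set their knockdown library against this 1 control.

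Nodal is a secreted ligand of the TGF-beta family that signals through activin receptors. It needs a co-receptor of the EGF-CFC family, such as the Tdgf1 product Cripto, and the signal reaches the nucleus as phosphorylated Smad2 and Smad3 bound to Smad4, which act with Foxh1 on target genes. Nodal and both Lefty genes are themselves targets, and the Lefty proteins block the ligand, so the pathway holds positive and negative feedback. In the early embryo Nodal signalling maintains the epiblast and patterns mesoderm and endoderm, and it holds back neural differentiation.

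Gmnn, the gene of Geminin and the check of the labels, had a level of 27.0 FPKM in knockdown library 1, 65.9 in library 2 and 27.9 in library 3, with 113 in the control. Library 2 thus kept the most Gmnn, 58.4% of the control, and its table did not mark the gene. FPKM is fragments scaled to exon length and sequencing depth, so levels are per length. Relative to the control, depth was 1.00, 1.15 and 0.972 in libraries 1, 2 and 3, read from the whole-read steps of low features. Neural precursor markers were present in all 4 libraries. Their summed level over 10 genes, Sox1, Sox2, Pax6 and Nes among them, was 526, 635 and 542 FPKM against 515. The largest part was Sox2, with 140, 203 and 154 FPKM against 135. Sox1 was lower in libraries 2 and 3 without a mark, with 63.8, 42.5 and 48.8 FPKM against 64.0. Hes5 was marked by the authors as lower in library 1 only, with 6.28, 27.6 and 16.1 FPKM against 14.3. By the study's rule, given below, 1 of the 10, Lix1, fell. Library 1 lay nearest to the control. The median absolute log2 ratio over the 11968 features tested was 0.13, 0.20 and 0.19 in libraries 1, 2 and 3. By the labels, library 1 also shares its replicate number with the control, and libraries 2 and 3 have no control of their own number. In libraries 2 and 3 a difference between experiments therefore cannot be told apart from the knockdown. On the log2(FPKM + 1) scale, used for all log2 ratios in the text, changes of low genes are understated. These are bulk libraries, in which fewer cells of a type and less RNA per cell cannot be told apart.

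In the control, Acvr2b had the highest level of the 9 genes, with 32.3 FPKM. Lefty1 at 15.4, Skil at 14.7 and Foxh1 at 12.8 followed, then Gdf3 at 6.75, Nodal at 3.65, Lefty2 at 1.85, Tdgf1 at 1.42 and Cer1 at 0.299. Because the control has no replicate, the order can be set against a spread only in the knockdown libraries. There the means were 27.0 ± 1.14 FPKM (SD, n = 3) for Acvr2b and 18.9 ± 4.27 (SD, n = 3) for Skil, whose values did not overlap. Cer1, the lowest, had 0.158 ± 0.0497 (SD, n = 3) and did not overlap Nodal, the next above it, with 2.88 ± 1.41 (SD, n = 3). All other neighbours in that order overlapped. Tdgf1 changed place most: it ranked 8 of 9 in the control and in library 1, 3 in library 2 and 1 in library 3.

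**Figure D1:**
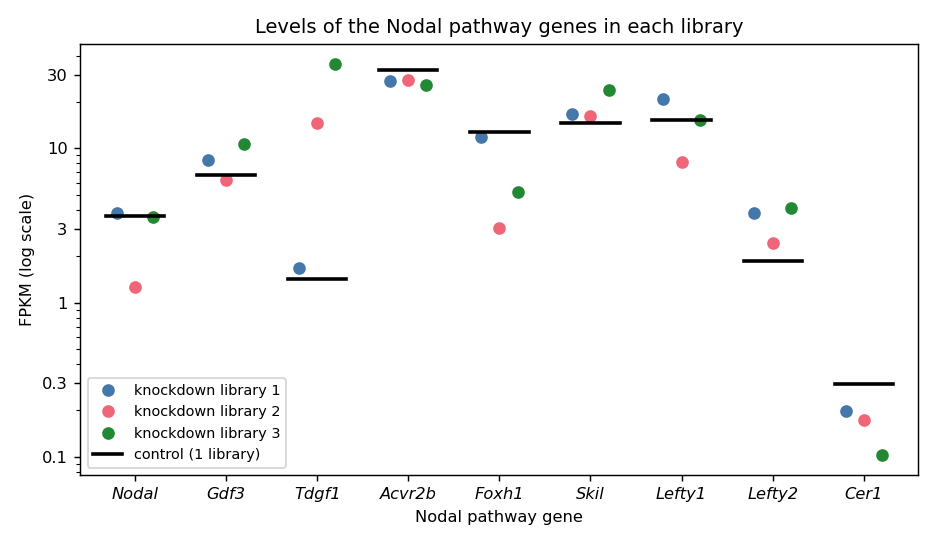
Level of each Nodal pathway gene in FPKM on a log axis, with 1 point for each knockdown library and a bar for the single control library. Tdgf1 stood at 1.42 FPKM in the control and reached 14.6 in library 2 and 35.5 in library 3, and Foxh1 was at 3.04 and 5.18 against 12.8.

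Tdgf1 was the 1 member called by the study's rule, which asks that at least 2 tables carry the authors' significance mark in the same direction and that none carries the opposite one. Of the 14477 features that could be called, 2.88% met the rule, 1.98% as higher and 0.905% as lower, and 8 of the 9 members could be called. Foxh1 and Skil were each marked in 1 table, and the ligands, Acvr2b and both Lefty genes in none. Each ratio below has a 95% interval implied by the deposited test, which sets 1 library against 1 library and holds no variation between control cultures. The implied error of the natural log ratio was unlike between tables, with a median over 8 members of 0.155, 0.371 and 0.331 in libraries 1, 2 and 3. Intervals, p-values and marks are therefore not directly comparable between libraries.

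The ligand gene Nodal (chromosome 10, 60880719 to 60888085 in mm9, the build of all positions here unless another is named) had 3.80 FPKM in library 1, 1.26 in library 2 and 3.59 in library 3, and 3.65 in the control. Libraries 1 and 3 lay at the control's level, and library 2 was at 34.7% of it, with an interval from 14.2% to 84.5%. The authors' deposited table gave that difference a p-value of 0.0198 and a q-value of 0.209 and did not mark it. Its mean log2 ratio of -0.34 had an SD of 0.61 (n = 3) and a limma adjusted p = 0.999, and without library 2 the mean was 0.014. Gdf3 (chromosome 6, 122555420 to 122560089), a relative of Nodal that shares its receptors, had 8.42, 6.27 and 10.8 FPKM against 6.75. Libraries 1 and 3 were above the control and library 2 just below it, at 125%, 159% and 92.9%, and the intervals, from 92.9% to 167%, from 89.8% to 283% and from 47.9% to 180% in that order, all included 100%. Its mean log2 ratio was 0.26 with an SD of 0.35 (n = 3) and a limma adjusted p = 0.999, and the mean was 0.09 without library 3 and 0.44 without library 2.

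Tdgf1 (chromosome 9, 110842111 to 110848662) encodes the co-receptor that Nodal and Gdf3 need. It had 1.68 FPKM in library 1, 14.6 in library 2 and 35.5 in library 3, against 1.42 in the control. Libraries 2 and 3 were far above the control, and library 1 was close to it. The levels were 118%, 1030% and 2496% of the control and the implied intervals ran from 60.9% to 230%, from 466% to 2273% and from 1190% to 5233%. In the authors' deposited tables the p-value was 0.619 in library 1 and 7.83e-09 in library 2, and it was listed at 0 in library 3. The mean log2 ratio was 2.25 with an SD of 1.92 (n = 3). In limma, fitted across all 11968 features with the lone control assumed to vary like the knockdown libraries, its standard error was 1.49 and it did not pass (limma adjusted p = 0.999). The level of Tdgf1 over that of Nodal was 0.390 in the control and 0.443, 11.6 and 9.90 in libraries 1, 2 and 3. Gmnn stood at 24.0%, 58.4% and 24.7% of the control in the same libraries. Whether the Tdgf1 difference depends on the Gmnn level was not tested.

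The call rested on libraries 2 and 3: without either of them Tdgf1 was not called, because both remaining tables then had to mark it. Leaving out library 3 lowered the mean log2 ratio to 1.42, and leaving out library 1 raised it to 3.30, where limma gave an adjusted p = 0.279, the lowest of any member and alternative. Part of the Tdgf1 transcript recurs elsewhere: 12.5% of its 50-base windows in GENCODE M21 are also in the pseudogene Tdgf1-ps1, so some reads may have been shared.

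The 250 bases upstream of the Tdgf1 start are printed because it was the called member, and those of Nodal, the ligand, for comparison. Both come from RefSeq on GRCm38.p6, Tdgf1 from chr9:110946159-110946408 on the minus strand and Nodal from chr10:61417722-61417971 on the plus strand. Capitals mark GGGCGTGG, a GC-box-like sequence of the kind bound by Krüppel-like factors, searched on both strands.
Tdgf1: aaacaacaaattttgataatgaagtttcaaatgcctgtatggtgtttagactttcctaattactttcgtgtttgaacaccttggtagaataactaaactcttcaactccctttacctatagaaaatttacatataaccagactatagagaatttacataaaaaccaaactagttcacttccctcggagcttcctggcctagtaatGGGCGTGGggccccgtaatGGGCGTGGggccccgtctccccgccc
Nodal: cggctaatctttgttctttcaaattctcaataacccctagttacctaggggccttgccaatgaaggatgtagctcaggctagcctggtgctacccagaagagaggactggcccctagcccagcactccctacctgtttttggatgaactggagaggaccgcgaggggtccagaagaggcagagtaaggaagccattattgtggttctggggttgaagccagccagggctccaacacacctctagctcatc
The Tdgf1 window holds this motif at 45 and 26 bases before the start, inside a stretch of 21 bases that occurs at 2 places 19 bases apart. Of 32851 RefSeq windows of the same length, 4.79% held the motif, 0.615% held it at least 2 times, and 2.21% held any repeated stretch as long. The motif was chosen after the sequence had been seen. Searches on both strands for a Foxh1-type site (TGTGGATT, TGTGTATT, TGTTGATT or TGTTTATT, in 3.93% of windows), a Smad palindrome (GTCTAGAC, 0.167%) and the Oct octamer (ATGCAAAT, 1.60%) found no match in the windows of Tdgf1, Nodal, Acvr2b and Cer1, the 4 members in the RefSeq table. A match is a description of letters and not of binding.

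Markers of naive pluripotent cells were high in the same libraries as Tdgf1. The summed level of 13 measured naive markers was 81.0 FPKM in the control and 104, 356 and 582 in the knockdown libraries, and 8 of the 13 rose by the study's rule and 0 fell. Among them Dppa5a had 32.8, 184 and 286 FPKM against 19.9, Zfp42 had 4.68, 33.0 and 58.0 against 3.74, and Esrrb had 0.415, 6.83 and 12.6 against 0.417. In the knockdown libraries the largest parts of the sum were Dppa5a and Pou5f1. Pou5f1, which is not particular to naive cells, had 22.4, 45.2 and 69.5 FPKM against 16.9. Dppa3, too low for a test, had 0.0621, 0.432 and 0 FPKM against 0.249. None of the 13 was listed at 0 in all 4 libraries. The 3 tested features whose log2 ratios lay nearest to those of Tdgf1 over the 3 libraries were Zfp42 at a Euclidean distance of 0.33, the germ cell gene Stra8 at 0.61 and Esrrb at 0.70, with 7 features within a distance of 1. All 3 share the control with Tdgf1. The stem cells had been kept on fibroblast feeders, and summed fibroblast markers were 30.4, 48.7 and 78.5 FPKM against 26.6 over 9 genes. Of these, 3 rose and 0 fell, Postn, Lox and Col5a2, and none was at 0 in every library. Neuron markers also differed, at 151, 547 and 276 FPKM against 141 over 8 genes, of which 4 rose, Nefm, Tubb3 and Elavl4 among them, and 0 fell. Stmn2, the neuron marker with the highest control level, went the other way in libraries 2 and 3, with 75.4, 44.6 and 40.5 FPKM against 66.9, and was marked as lower in library 3. With library 2 or 3 left out, 0 genes of the naive, fibroblast and neuron lists were called. The part of any of these cell types in the Tdgf1 levels was not tested.

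**Figure D2:**
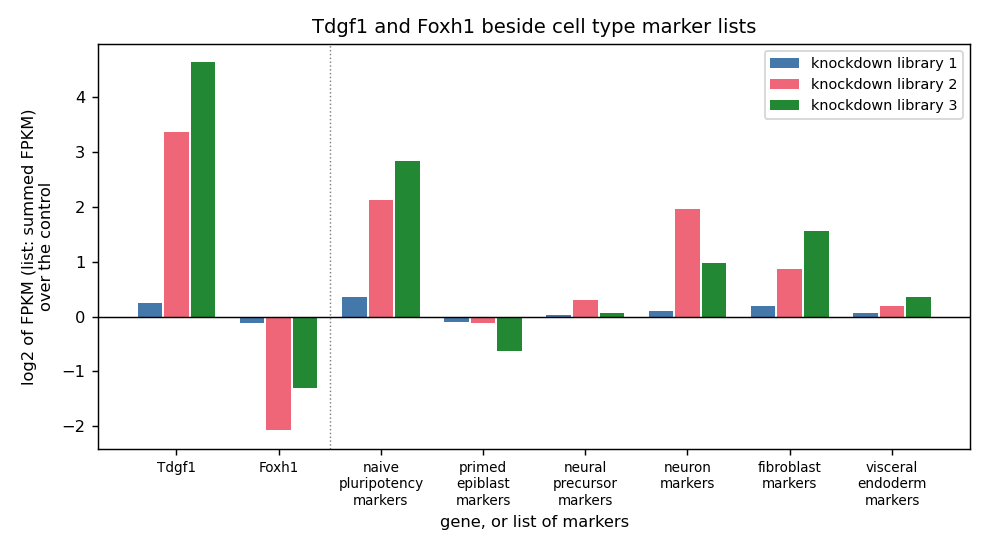
Log2 of FPKM over the control for Tdgf1 and Foxh1, and of summed FPKM over the control for 6 lists of cell type markers, without a pseudocount and with 1 bar for each knockdown library. The naive pluripotency sum went from 81.0 in the control to 582 FPKM in library 3, as Tdgf1 went from 1.42 to 35.5. The neural precursor sum, of which Sox2 is the largest part, lay between 515 and 635 FPKM.

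The receptor gene Acvr2b (chromosome 9, 119311618 to 119342624), for an activin type II receptor that binds Nodal and activins, had the smallest spread of log2 ratios among the 8 tested members. It had 27.5, 27.8 and 25.7 FPKM against 32.3, so all 3 knockdown libraries were lower and close together. They stood at 83.5% ± 3.52 (SD, n = 3) of the control. That spread, an SD of 0.059, was smaller than that of all but 10.4% of tested features. No table marked it, each implied interval included 100%, and limma gave a log2 change of -0.25 with a standard error of 0.13 and an adjusted p = 0.999. How far control cultures differ in Acvr2b is not known from 1 library.

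Foxh1 (chromosome 15, 76498736 to 76500303), the partner of the Smads on Nodal targets, had 11.9, 3.04 and 5.18 FPKM against 12.8. Library 1 was near the control, while libraries 2 and 3 were at 23.7% and 40.4% of it, with intervals from 10.5% to 53.6% and from 19.6% to 83.3%. The authors' deposited tables marked Foxh1 in library 2, with a p-value of 0.000531 and a q-value of 0.0146. In library 3 the same tables gave a p-value of 0.0141 and a q-value of 0.177, with no mark, so the study's rule was not met. A rule of at least 2-fold in at least 2 tables, set on the log2(FPKM + 1) scale, was met by 3.12% of callable features. Lefty2, over 2-fold higher by plain FPKM in libraries 1 and 3 (205% and 221% of the control), fell short on that scale. The rule took in Foxh1 as lower beside Tdgf1 as higher. The mean log2 ratio was -1.01 with an SD of 0.84 (n = 3), the lowest of the 9, and limma gave a standard error of 0.67 and an adjusted p = 0.999. Without library 2 the mean was -0.63. The Foxh1 difference was largest in library 2, where most Gmnn was kept. It was small in library 1, whose Gmnn level was near that of library 3. Whether it depends on the Gmnn level was not tested. No other feature overlaps Foxh1, and the nearest, Kifc2, is 110 bases away.

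Several markers of primed epiblast cells were also low in libraries 2 and 3. Of 8 measured primed epiblast markers 5 could be called, 4 fell and 0 rose, where 0.905% of all callable features fell. Wnt8a had 10.9, 0.808 and 2.04 FPKM against 9.90 and Pou3f1 had 5.28, 1.32 and 0.955 against 5.57. Cldn6 had 27.4, 6.23 and 9.46 against 26.4. The summed level of the 8 was 157, 155 and 109 FPKM against 169, and no gene of the list was at 0 in every library. Sox3, the largest part of that sum, was not called and had 66.6, 120 and 66.2 FPKM against 82.5, above the control in library 2. Fgf5 and Foxd3 were under 1 FPKM in all 4 libraries and too low for a test, with Fgf5 above the control in every knockdown library and Foxd3 in libraries 2 and 3. With either of these libraries left out, 0 genes of this list were called. The part of these cells in the Foxh1 levels was not tested.

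Skil (chromosome 3, 30993982 to 31021499) encodes SnoN, which binds Smads and represses their targets, and it is itself induced by TGF-beta family signals. It had 16.7, 16.1 and 23.8 FPKM against 14.7, so every knockdown library was above the control and library 3 most. The levels were 113%, 110% and 162% of the control, and the intervals left out 100% in libraries 1 (from 100.3%) and 3 (from 126%). The authors' deposited table of library 3 marked it, with a p-value of 0.000199 and a q-value of 0.00745, and the other tables did not. Its mean log2 ratio was 0.32 with an SD of 0.30 (n = 3) and a limma adjusted p = 0.999, and without library 3 the mean was 0.15. The level of Foxh1 over that of Skil was 0.872 in the control and 0.711, 0.188 and 0.218 in libraries 1, 2 and 3.

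**Figure D3:**
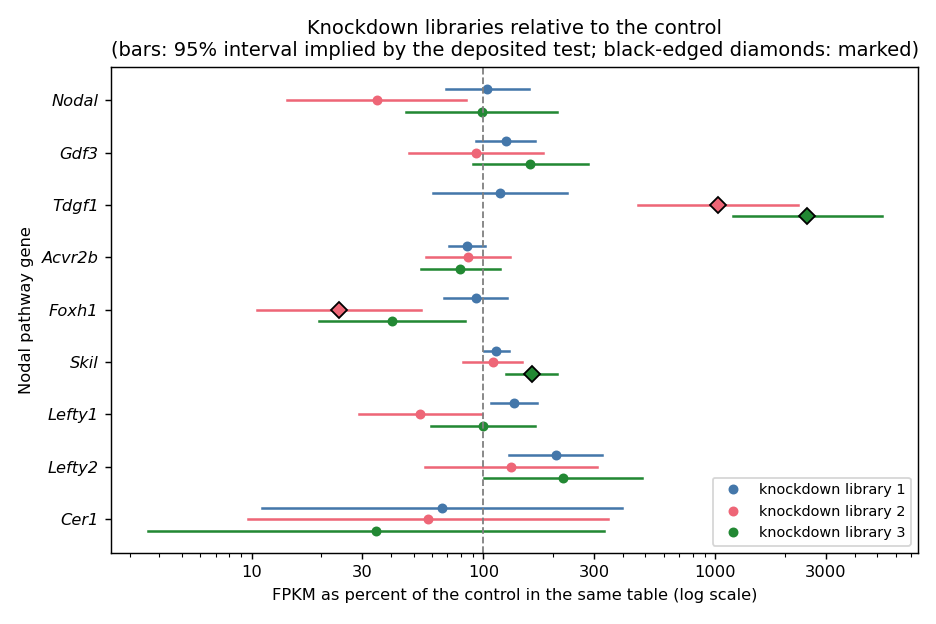
FPKM of each gene as percent of the control in the same table, on a log axis, with bars for the 95% interval that the deposited test implies and black-edged diamonds where the authors marked the difference. The marks fall on Tdgf1 in libraries 2 and 3, Foxh1 in library 2 and Skil in library 3, and the Cer1 bars, from a statistic the authors did not test, span from 3.57% to 398%.

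Among the inhibitors, Lefty2 was above the control in every knockdown library, with 3.79, 2.44 and 4.09 FPKM against 1.85. The levels were 205%, 132% and 221% of the control, and the intervals left out 100% in libraries 1 (from 129%) and 3 (from 101%). The q-values in the authors' deposited tables were 0.0756, 0.982 and 0.374, with no mark, and limma gave a mean log2 ratio of 0.62 with a standard error of 0.32 and an adjusted p = 0.999. Lefty1 did not follow it: its level was 20.8, 8.20 and 15.3 FPKM against 15.4, above the control in library 1, below it in library 2 and equal to it within 1% in library 3. Its p-value in the authors' deposited tables was 0.00907 in library 1 and 0.0443 in library 2, in opposite directions, and neither was marked. The intervals in these libraries, from 108% to 170% and from 29.0% to 98.4%, left out 100%. The mean log2 ratio was -0.14 with an SD of 0.63 (n = 3) and a limma adjusted p = 0.999, and without library 2 it was 0.20. The level of Lefty1 over that of Lefty2 was 8.31 in the control and 5.50, 3.36 and 3.73 in libraries 1, 2 and 3, lower in all 3. The 2 genes are close paralogs on chromosome 1, Lefty2 from 182823249 to 182829233 and Lefty1 from 182865169 to 182868532 (mm9). Of the 50-base windows of their transcripts, 17.9% of Lefty1 and 11.6% of Lefty2 are also in the other gene, so the split of reads between them is uncertain.

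Cer1 (chromosome 4, 82527654 to 82531055), which encodes the secreted Nodal and BMP antagonist Cerberus, was too low for a test in any table. Its levels of 0.199, 0.173 and 0.102 FPKM against 0.299 matched 2, 2 and 1 reads against 3, or a common multiple. With those reads the ratios to the control were 0.665, 0.578 and 0.343, with exact 95% counting intervals from 0.0555 to 5.80, from 0.0483 to 5.05 and from 0.00654 to 4.27. Each interval included 1, so the direction of a difference could not be read at this depth. With those reads, a rise above 5.80-fold lay outside every interval. Cer1 marks the anterior visceral endoderm of the embryo. Of 10 visceral endoderm markers 1, Cubn, rose and 0 fell, where 1.98% of all callable features rose and 0.905% fell. Their summed level was 83.2, 91.0 and 102 FPKM against 79.9, Afp was listed at 0 in all 4 libraries, and Ttr did not pass 0.310 FPKM.

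Over the members together, 0 of 8 were marked in the table of library 1, where 2.43% of features were. In library 2 the marks fell on 2 of 8, Tdgf1 and Foxh1, against 5.24% of features, and in library 3 on 2 of 8, Tdgf1 and Skil, against 4.62%. Counting a mark in any of the tables, 3 of 8 members had one, against 8.90% of callable features. Tdgf1, Skil and Lefty2 were above the control in all 3 knockdown libraries, as were 22.7% of tested features, and Acvr2b and Foxh1 were below it in all 3, as were 22.9%. Cer1 was also below it in all 3, at the levels just given. By limma 0 of the 8 members tested passed an adjusted p of 0.05, whereas 15 of 11968 features, 0.125%, passed. An unadjusted limma p under 0.05 was found for 0 members and for 152 of the 11968 features. The median log2 ratio of the 8 was 0.16, -0.15 and 0.30 in libraries 1, 2 and 3, beside -0.02, 0.03 and 0.01 over all features tested. Their median absolute log2 ratio was 0.20, 0.55 and 0.63, beside 0.13, 0.20 and 0.19. Of the 8, 6 lay under the median control level of tested features, and these medians are a description. With 4 ways to choose the control among 4 libraries, an exact permutation p cannot be below 0.25, so no such test was made.

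**Figure D4:**
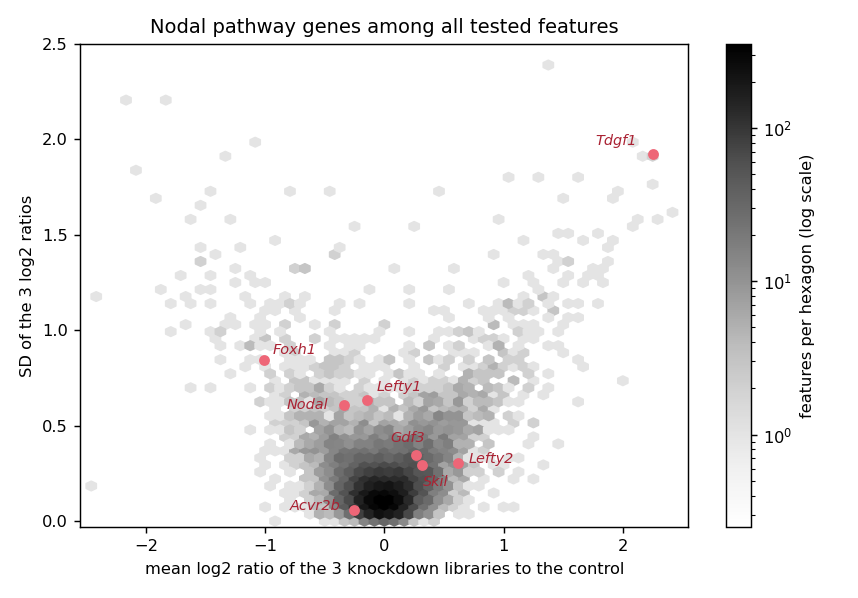
Mean against SD of the 3 log2 ratios for 11858 tested features (grey hexagons, darker for more features on a log scale), with the 8 tested members in red; 110 features lie outside the axes. Tdgf1 sits at a mean of 2.25 and an SD of 1.92, Foxh1 at -1.01 and 0.84, and Acvr2b at the low end of the SD with 0.059.

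Other genes of activin, Nodal and TGF-beta signalling were read from 6 lists with 60 genes, each with a row in the tables. Of these, 2 rose, 1 fell and 57 were not called. Of the 60, 52 could be called and 5.77% of those were, beside 2.88% of all callable features. By limma 0 of 46 tested passed (lowest adjusted p = 0.999). The 3 calls were made in libraries 2 and 3 and were lost without either. In the list of ligands and their processing enzymes 1 of 6 rose and 0 fell. It was Pcsk6, a proprotein convertase that cleaves Nodal precursor, with 3.95, 12.2 and 11.4 FPKM against 4.04; libraries 2 and 3 were alike and library 1 was at the control's level. Furin, a convertase of the same family, had 14.0, 10.2 and 14.4 against 14.3 and was not called.

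The receptor list (0 of 4 called) held Acvr2a with 16.9, 21.1 and 17.8 FPKM against 15.8 and Acvr1b with 9.19, 13.1 and 11.9 against 10.9. Among 7 transducers 0 were called. Smad4, the shared Smad, had 56.1, 55.0 and 57.8 FPKM against 57.7, and Smad2 had 39.2, 42.8 and 47.1 against 43.7. Median log2 ratios of the transducers were -0.04, -0.03 and 0.01.

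Of 16 inhibitors 1 fell and 0 rose. Fst encodes follistatin, which binds activins, and had 36.2, 19.9 and 22.8 FPKM against 46.0, below the control in every library. The most abundant inhibitors, Ppm1a with 58.8, 58.1 and 53.6 FPKM against 56.7 and Tgif1 with 39.7, 44.3 and 55.8 against 33.8, were not called. Drap1 was listed at 0 in all 4 libraries with the authors' status for a failed estimate in every table, so its level is not known.

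Of 15 Nodal targets 1 rose and 0 fell. It was Lhx1, a LIM homeobox gene of mesoderm and also of neurons, with 0.180, 5.999 and 1.49 FPKM against 0.0602. With so low a control level the ratio is poorly known, and library 1 was too low for a test. The implied intervals ran from 1342% to 74120% in library 2 and from 315% to 19357% in library 3, where the authors' q-value was 0.0492. Cxcr4, with 37.7, 62.4 and 49.7 FPKM against 38.2, and Gata6, with 13.4, 16.2 and 20.1 against 16.4, were the most abundant and were not called. Mesp1 was listed at 0 in all 4 libraries. In the TGF-beta arm 0 of 12 were called, with Ctgf, a target of TGF-beta, at 113, 145 and 144 FPKM against 100.3 and the receptor Tgfbr1 at 52.1, 68.5 and 50.5 against 54.0.

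**Figure D5:**
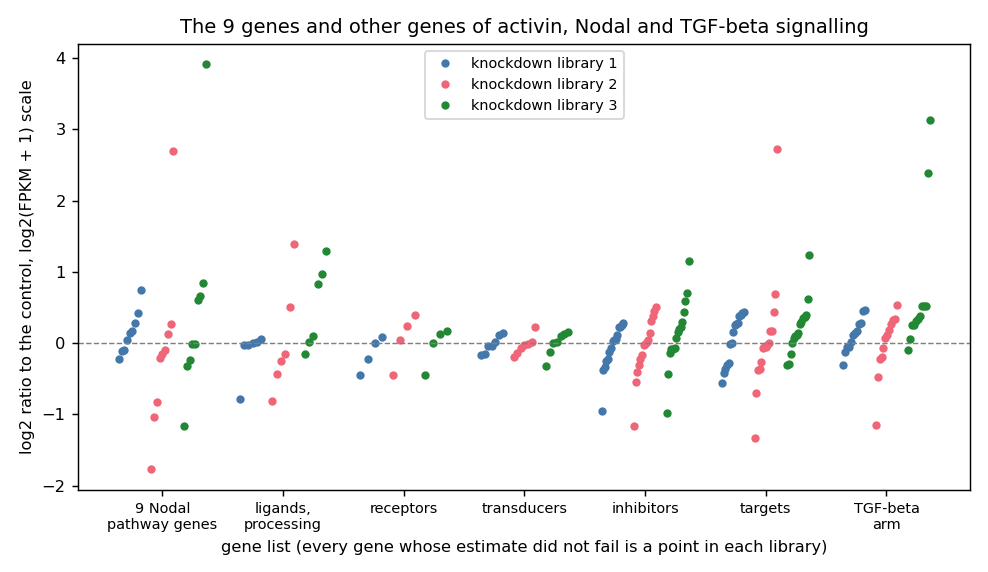
Log2 ratio to the control, on the log2(FPKM + 1) scale, of every gene in the list of 9 and in 6 further lists, Drap1 left out, with 1 colour for each knockdown library. The transducers lie close to 0 in all libraries, with medians of -0.04, -0.03 and 0.01, and the highest point among the 9 genes is Tdgf1 in library 3 at 3.91.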

How the data were processed

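Expression was read from 3 deposited tables, each setting 1 knockdown library against the shared control. TopHat, Cufflinks, Cuffdiff and mm9 are named in the submitters' processing notes; no version is named, and the annotation is not given in the sources used here. The authors gave FPKM for both libraries. Per the file headers the tables also hold a Cuffdiff p-value and, as scores, a q-value (above 1 in places), a z statistic and the log of control over knockdown; the deposited log and z gave the implied error of each ratio. Called genes are those meeting the study's rule on the authors' marks. limma 3.58.1 (R 4.3.3) was fitted to log2(FPKM + 1), pseudocount 1, using a prior variance that follows the level, with 2 residual degrees of freedom and Benjamini-Hochberg adjustment at 0.05; it took in 11968 features tested by the authors in every table whose average FPKM was 1 or more. The fit was also run on simulated data in which all features and the control had 1 common spread. The spread of the measured features differs, so that run does not show how well the fit serves them. Absolute depth is unknown; 84.7% to 87.9% of ratios of low features matched whole-number read ratios (tolerance 0.2%, numbers up to 12), and intervals from reads cover counting error only. Members and lists were chosen with earlier results of these data known. All 9 members were named; from the other lists the called genes with the largest mean ratio (up to 4, or 3 for cell markers) and, for pathway lists, the 2 most abundant. The alternatives were another pseudocount, no filter, centring, 1 prior variance, the control averaged over tables, stricter and fold-based rules and leaving out each knockdown library. Files repeating the marked features were not used.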

Additional observations from a re-analysis of the deposited data

How the results depend on the processing

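Under the study's rule 1 member, 417 features and 3 genes of the pathway lists were called. Asking for a mark in all 3 tables left 0, 17 and 0. A 2-fold rule on the log2(FPKM + 1) scale gave 2 members, Foxh1 joining Tdgf1. Leaving out 1 knockdown library gave 0 to 1 members, 34 to 392 features and 0 to 3 pathway genes: without library 2 or without library 3, 0 members and 0 pathway genes were called. limma called 0 members under every alternative run, with adjusted p from 0.279 (without library 1) upward. Over all features it called 15, and 9 with a pseudocount of 0.1, 4 with no filter on low values, 7 with 1 prior variance, and 6 to 32 with a library left out. Without library 1 the largest mean log2 ratios of members, of either sign, were 3.30 for Tdgf1 and -1.47 for Foxh1. Of 65 mean log2 ratios of members under an alternative, 63 kept their direction and 2 turned, and 0 of the 56 with a limma test passed. The alternatives without a filter, with 1 prior variance and with the control averaged over tables left these means unchanged. They count among the 63 but could not have turned a direction. Without library 2 Nodal turned from -0.34 to 0.014 and Lefty1 from -0.14 to 0.20, and the cause was not tested. With each library left out in turn they ranged from -0.53 to 0.014 and from -0.42 to 0.20. No paired analysis was possible because the control has 1 library, which shares a replicate number with library 1 only. Cer1, which no table tested, could not be fitted by limma under any setting.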

Other observations

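The ligand gene Tgfb2 was low in library 2, with 5.98, 1.62 and 6.21 FPKM in libraries 1, 2 and 3 against 4.81. The authors' deposited tables marked it in library 2 and in no other. In library 3, Eng, which encodes the TGF-beta co-receptor endoglin, had 12.3 FPKM against 0.521, with 0.851 and 0.822 in libraries 1 and 2, but the authors' status in every table was low data, so it could not be called. Library 3 also had the highest summed fibroblast markers, 78.5 FPKM against 26.6, whose part in this level was not tested. Smad7, an inhibitory Smad induced by TGF-beta family signals, had 6.55 FPKM in library 3 against 2.39 and was marked there, as Skil was. These genes were chosen after their values were seen, and each difference is between single libraries.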
